A study of Mus musculus with 394 samples.

Results

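The comparison set 6 libraries of DAT:EGFP striatal synaptosomes against 3 libraries of VGlut1-VENUS striatal synaptosomes, all sorted by fluorescence-activated synaptosome sorting (FASS), and these 9 libraries were chosen from the 394 of the series by their labels alone. Synaptosomes are resealed nerve terminals torn from their axons by homogenization, here purified on a Ficoll gradient and sorted as small particles that took up the membrane dye FM4-64. In the DAT:EGFP group (genotype label DATCrePos_AAV_EGFP), heterozygous mice with Cre under dopamine transporter (DAT) control received an AAV with Cre-dependent EGFP and a WPRE element in the substantia nigra pars compacta and the ventral tegmental area as young adults, and EGFP-positive striatal particles were collected. In the VGlut1-VENUS group (genotype label VGLUT1_VENUS), mice carried a knock-in of the yellow protein VENUS at *Slc17a7*, no AAV was described, and VENUS-positive particles were collected. All mice were 90 to 150 days old and of either sex, and several Cre-positive mice entered each DAT:EGFP sorting experiment. From the same preparations, all small particles were also sorted without a fluorescence gate (9 striatal samples, 3 technical repeats each), and 3 cortical VGlut1-VENUS FASS libraries are given beside the results they touch. Mouse line, virus injection, reporter and preparation all changed together between the groups, so their parts in any difference cannot be told apart.

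Dopamine axons from the midbrain branch densely in the striatum, where they make and release dopamine with tyrosine hydroxylase (*Th*), DOPA decarboxylase (*Ddc*), the vesicular monoamine transporter (*Slc18a2*) and the dopamine transporter (*Slc6a3*). VGlut1 terminals in the striatum come mainly from the cortex and load glutamate into vesicles with the product of *Slc17a7*. Both kinds of terminal contact spiny projection neurons, the main striatal cell type, and fine astrocyte processes surround them. The comparison addresses whether particles sorted for the dopaminergic reporter hold mRNAs that particles sorted for VGlut1 do not. When the study reanalysed its sorted samples, a large part of the particles in both groups lacked the reporter. The study adds that dopamine terminals can stay attached to VGlut1 terminals. Neither group is therefore a pure terminal type, and this limits the differences that can be seen.

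The libraries were shallow, and the groups did not differ in depth or composition by the tests made. Total UMIs (unique molecular identifiers, each counting 1 captured molecule) were 30423, 13072, 13599, 33833, 22761 and 17410 in the DAT:EGFP FASS libraries and 23709, 16947 and 21376 in the VGlut1-VENUS FASS libraries. The groups overlapped, with both the deepest and the shallowest libraries among the DAT:EGFP samples (ratio of geometric means 0.997, p = 0.988, exact two-sided permutation test over 84 regroupings, whose smallest possible p is 0.0119). Thinned to 13072 UMIs, a library was expected to show 3155 ± 302 genes in the DAT:EGFP group and 3190 ± 49.2 in the VGlut1-VENUS group (SD, n = 6 and 3, exact permutation p = 0.881). Mitochondrially encoded RNA made up 16.8% ± 4.04 and 17.4% ± 0.944 of UMIs (SD, n = 6 and 3, exact permutation p = 0.798), and all 3 adjusted p-values were 0.988. A single row, *Dusp10*, which encodes a phosphatase of stress-activated kinases, took 4.48% to 21.3% of the UMIs in DAT:EGFP and 10.2% to 12.1% in VGlut1-VENUS libraries, with its largest shares in the 2 shallowest libraries. On the first principal component of the 500 most variable genes (30.0% of their variance), these 2 libraries, DAT:EGFP replicates 2 and 3, stood at 19.3 and 10.7 and the 2 deepest, replicates 4 and 1, at -9.55 and -9.42, while the VGlut1-VENUS libraries lay between -3.78 and 1.22.

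**Figure D1:**
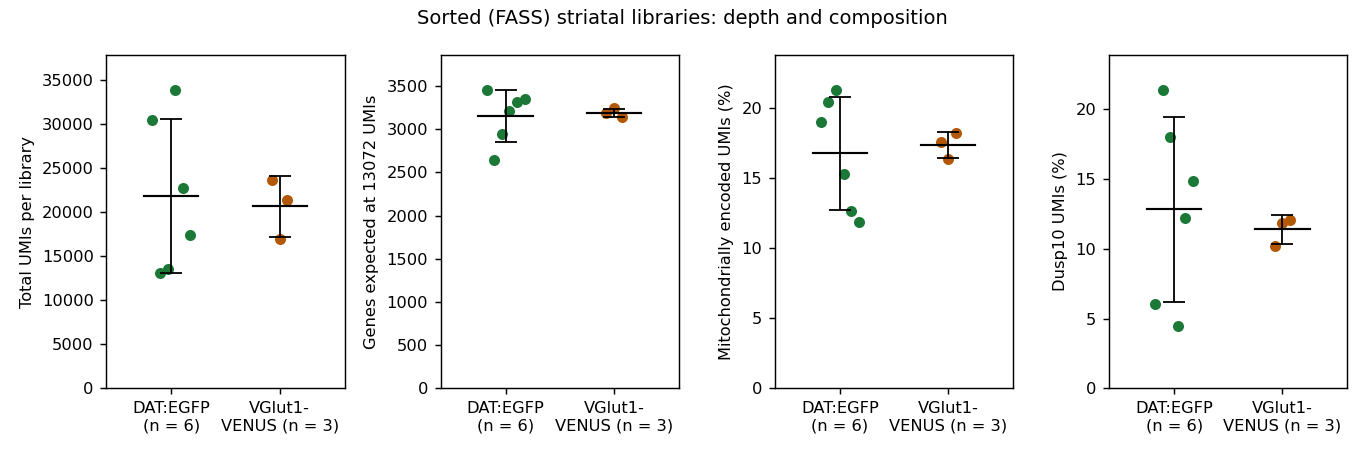
Total UMIs, genes expected at 13072 UMIs, the mitochondrially encoded share and the *Dusp10* share of UMIs (%) for each sorted striatal library (points), with mean and SD (bars), by group. The VGlut1-VENUS libraries lie inside the DAT:EGFP range in all 4 panels.

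Of 2099 genes with at least 10 UMIs over the 9 libraries, 2 differed between the groups, both lower in DAT:EGFP (edgeR's quasi-likelihood test, Benjamini-Hochberg adjusted p under 0.05, 0.0953% of the genes tested). They were *Gm20746*, a pseudogene of the ferritin light chain, and *Ick*, a serine/threonine kinase known from primary cilia. No gene was higher in DAT:EGFP. At an unadjusted p under 0.05 there were 95 of the 2099 genes, 59 higher and 36 lower, about the share that this threshold gives by chance. The filter summed UMIs over 6 DAT:EGFP and 3 VGlut1-VENUS libraries. Under it 26 tested genes were at 0 in all VGlut1-VENUS libraries and 2 in all DAT:EGFP libraries, so the 2 directions are not on equal terms. DESeq2's Wald test called 1 gene (*Ick*) with 27 at an unadjusted p under 0.05. The median log2 fold change (DAT:EGFP minus VGlut1-VENUS, here and throughout) over all tested genes was 0.04. These p-values measure the spread between sorted libraries, each from its own preparation.

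**Figure D2:**
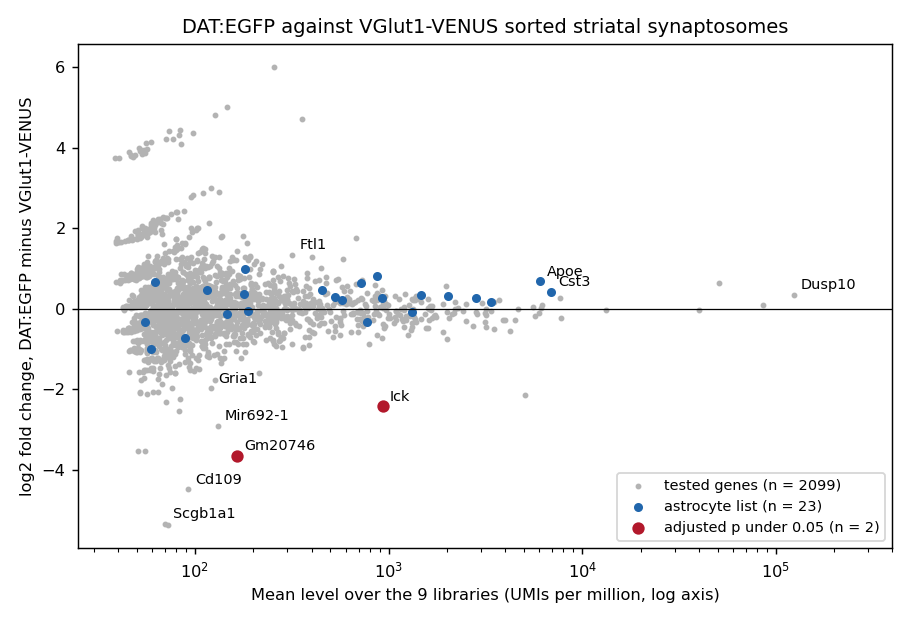
log2 fold change, DAT:EGFP minus VGlut1-VENUS, against mean level (CPM, log axis) for the 2099 tested genes of the sorted striatal libraries. The 2 genes past the test (red), *Ick* and *Gm20746*, are both lower in DAT:EGFP, and the astrocyte list (blue, 23 genes) lies mostly just above 0.

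The *Gm20746* row held 2, 0, 0, 0, 1 and 1 UMIs in the 6 DAT:EGFP FASS libraries and 16, 6 and 6 in the 3 VGlut1-VENUS FASS libraries. Every VGlut1-VENUS library was above every DAT:EGFP library. The means were 27.9 ± 31.3 and 437 ± 210 CPM (counts per 1000000 UMIs, SD, n = 6 and 3), a log2 fold change of -3.66 ± 0.62 (SE, edgeR adjusted p = 0.00433). The row was also high in the cortical VGlut1-VENUS FASS libraries (13, 13 and 9 UMIs) and differed in the unsorted small particles (log2 fold change -4.41 ± 0.57 SE, adjusted p = 0.000102), where the 6 DAT:EGFP samples held 0 to 3 UMIs and the 3 VGlut1-VENUS samples 7, 30 and 13. The row (ENSMUSG00000096755.1) lies on the minus strand at chr10:130592157-130592705 of GRCm38, where GENCODE vM21 lists the processed pseudogene *Ftl1-ps2*, and a predicted miRNA gene overlaps one end of it. Without VGlut1-VENUS replicate 1 its adjusted p was 0.126, and in DESeq2 it was 0.0635.

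The parent gene *Ftl1*, which encodes the ferritin light chain that stores iron together with *Fth1*, had the opposite sign. It was looked at only after the *Gm20746* values were seen. *Ftl1* held 17, 2, 2, 28, 8 and 6 UMIs in DAT:EGFP and 5, 3 and 2 in VGlut1-VENUS FASS libraries, at a log2 fold change of 1.34 that did not pass (standard error 0.48, adjusted p = 0.705). Because a processed pseudogene is a near copy of its parent, a 3' tag can be assigned to either row, and the separate values are uncertain. Whether such assignment shaped these values was not tested. The 2 rows summed gave 19, 2, 2, 28, 9 and 7 UMIs in DAT:EGFP against 21, 9 and 8 in VGlut1-VENUS, which overlap. For this sum the means were 425 ± 266 and 597 ± 262 CPM (SD, n = 6 and 3), with a log2 fold change of -0.43 ± 0.39 (SE, adjusted p = 0.995). The sum was at -0.61 in the small particles (standard error 0.34, adjusted p = 0.761). The heavy chain gene *Fth1*, among the most abundant rows, was at 7293 ± 2538 and 8662 ± 1106 CPM (SD, n = 6 and 3, log2 fold change -0.24, adjusted p = 0.995).

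*Ick* held 15, 7, 4, 17, 5 and 3 UMIs in DAT:EGFP and 20, 62 and 36 in VGlut1-VENUS FASS libraries, and the groups did not overlap. The means were 370 ± 160 and 2062 ± 1445 CPM (SD, n = 6 and 3), a log2 fold change of -2.42 ± 0.40 (SE, edgeR adjusted p = 0.00433). Without VGlut1-VENUS replicate 2 it was -1.79 and did not pass (adjusted p = 0.212), and with all 24 samples of the plate in the model it was -2.43 (adjusted p = 0.566). The 3 cortical VGlut1-VENUS FASS libraries held 12, 5 and 129 UMIs. *Ick* also varied between technical repeats of a single small particle sample. VGlut1-VENUS replicate 1 held 26, 303 and 8 UMIs in its 3 repeats, and replicate 2 held 365, 4 and 9. Of the 7 striatal small particle samples with at least 50 *Ick* UMIs, 5 had at least 80% of them in 1 repeat, while 1.61% of 2665 gene and sample pairs at that level did. In the small particles the log2 fold change was -1.52 ± 0.72 (SE, adjusted p = 0.688). *Ick* (ENSMUSG00000009828.15) is a protein-coding gene on the plus strand at chr9:78109192-78172107.

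The next row in order of p, *Mir692-1*, did not pass (adjusted p = 0.0702), with 1, 1, 0, 2, 1 and 0 UMIs in DAT:EGFP and 7, 9 and 3 in VGlut1-VENUS FASS libraries. The groups did not overlap, at 35.4 ± 31.1 and 322 ± 197 CPM (SD, n = 6 and 3, log2 fold change -2.91 ± 0.65 SE). It passed with TMMwsp scaling (adjusted p = 0.0461, over all alternatives 0.0223 to 0.884), and it passed in the small particles, with 0 to 4 UMIs against 6, 17 and 8 (log2 fold change -3.93 ± 0.50 SE, adjusted p = 0.000102). The row covers a miRNA hairpin at chr17:6895229-6895337 on the minus strand. The libraries were primed on poly(A) tails, so its UMIs count polyadenylated tags at this locus and not the mature miRNA. The mature sequence encoded there, from RefSeq on GRCm38.p6, is shown to identify the row, with the seed (bases 2 to 8) in capitals, and it is identical at 3 loci.

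mmu-miR-692: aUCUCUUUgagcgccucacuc

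The rows of the other 2 loci, *Mir692-2* and *Mir692-3*, held 0 UMIs in all striatal samples. Another pseudogene row, *Rpl13a-ps1* (ribosomal protein L13a), had the same direction without passing in the FASS libraries (122 ± 115 against 397 ± 58.5 CPM, SD, n = 6 and 3, log2 fold change -1.59, adjusted p = 0.604) and passed in the small particles (-1.85, adjusted p = 0.0190). Summed with its parent *Rpl13a*, which was looked at afterward, it was at -1.19 in FASS (adjusted p = 0.995) and -1.11 in the small particles (adjusted p = 0.187).

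Across the RiboTag libraries of the series, which come from other mice and plates, these rows stood at different levels. *Gm20746* was at 1.92 and 1.96 CPM in the pooled Cre-negative and Cre-positive libraries, below the DAT:EGFP small particles (9.05) and far below the VGlut1-VENUS small particles (171). *Mir692-1* was at 96.4 and 103 CPM there when pooled, with library medians of 44.8 and 37.6 CPM, beside 106 (median 79.4) in the VGlut1-VENUS and 8.04 (median 0) in the DAT:EGFP small particles. *Ick* was at 36.72 and 33.96 CPM, below every FASS and small particle group of the plate (209 to 3068 CPM pooled).

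**Figure D3:**
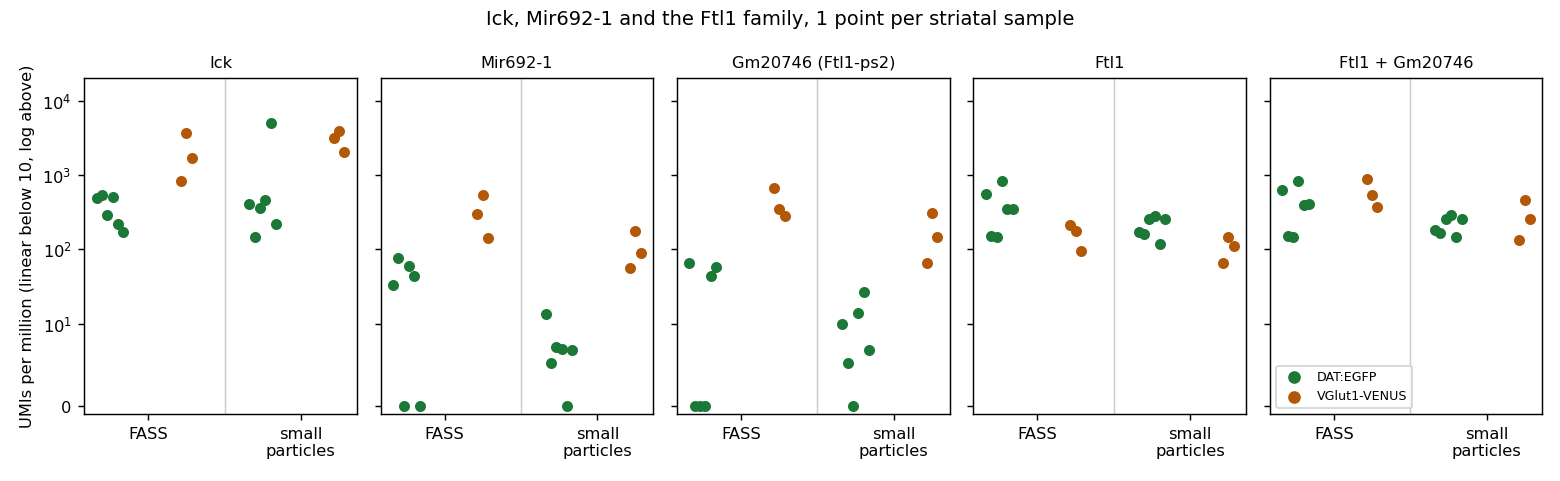
Level of *Ick*, *Mir692-1*, *Gm20746*, *Ftl1* and the sum of the last pair (CPM, linear below 10 and log above) in each striatal FASS and small particle sample, DAT:EGFP green and VGlut1-VENUS orange. *Mir692-1* and *Gm20746* are lower in every DAT:EGFP sample of both preparations, and the summed *Ftl1* rows overlap.

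The dopaminergic genes that define the sorted terminals were at or under the limit of detection. Over all 6 DAT:EGFP FASS libraries (131098 UMIs), *Th* had 1 UMI, *Slc6a3* 1, and *Slc18a2* and *Ddc* 0. In the 3 VGlut1-VENUS libraries (62032 UMIs) all of them were at 0. For *Th* and *Slc6a3* in DAT:EGFP this is 7.63 CPM with an exact 95% Poisson interval of 0.193 to 42.5, and a count of 0 allows up to 22.9 CPM in DAT:EGFP and 48.4 CPM in VGlut1-VENUS (a one-sided limit of 3 UMIs over the group, counting error only). A difference in these genes under these upper limits was therefore not detectable at this depth, and the labelled terminal type could not be checked by them. Over the 26 genes of the dopaminergic list, which adds factors such as *Nr4a2* and *Pitx3*, receptors and terminal proteins, there were 23 UMIs in DAT:EGFP (175 CPM, 95% interval 111 to 263) and 8 in VGlut1-VENUS (129 CPM, 55.7 to 254). The DAT:EGFP libraries held 5, 2, 4, 5, 1 and 6 of these UMIs and the VGlut1-VENUS libraries 2, 4 and 2, which overlap. In the 3 cortical VGlut1-VENUS FASS libraries the list held 19 UMIs (184 CPM, 95% interval 111 to 288). The striatal small particles were at 256 CPM in DAT:EGFP and 285 CPM in VGlut1-VENUS. Of the 23 DAT:EGFP UMIs, 11 came from *Aldh1a1*, a retinaldehyde dehydrogenase found in some dopamine neurons and in other brain cells, with at least 1 UMI in each of the 9 libraries. *Aldh1a1* also gave 15 of the 19 cortical UMIs. It was the single list member with enough UMIs for the test (94.1 ± 57.1 against 49.3 ± 8.70 CPM, SD, n = 6 and 3, log2 fold change 0.75 ± 0.78 SE, adjusted p = 0.995). *Dlk1* and *Sv2c* had 3 UMIs each in DAT:EGFP and 0 in VGlut1-VENUS FASS libraries. *Sv2c*, a synaptic vesicle protein of dopaminergic and striatal neurons, was at 80.4 and 82.3 CPM in the small particles of the 2 groups.

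*Slc17a7*, the gene that carries the VENUS knock-in, was sparse too, with 0, 0, 1, 1, 0 and 0 UMIs in DAT:EGFP and 1, 2 and 1 in VGlut1-VENUS FASS libraries. Pooled, this is 15.3 CPM (95% interval 1.85 to 55.1) against 64.5 CPM (17.6 to 165), and the intervals overlap. The small particles, with 22 and 7 UMIs, were at 22.1 CPM (13.9 to 33.5) and 23.99 CPM (9.65 to 49.4). Among the 18 genes of glutamatergic cortical and thalamic neurons, 5 were tested and none passed in either direction (median log2 fold change -0.07). The postsynaptic calmodulin-binding gene *Nrgn* was at 683 ± 311 and 737 ± 140 CPM (SD, n = 6 and 3, log2 fold change -0.07 ± 0.35 SE, adjusted p = 0.995). The list took 0.0662% to 0.151% of UMIs in DAT:EGFP and 0.114% to 0.136% in VGlut1-VENUS libraries, with the lower DAT:EGFP shares in replicates 2 and 3.

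Genes with the smallest p on the DAT:EGFP side were rows at 0 in all 3 striatal VGlut1-VENUS libraries, and none passed. *Sf3b5*, a subunit of the splicing factor SF3b, held 5, 1, 1, 5, 2 and 2 UMIs in DAT:EGFP (adjusted p = 0.339), and *Nkain4*, which encodes a protein that interacts with the sodium pump, held 4, 3, 2, 3, 1 and 2 (adjusted p = 0.519). *Golgb1* (the Golgi protein giantin, 13 UMIs), *Cdc123* (a factor for assembly of a translation initiation complex, 11), *Tax1bp1* (an autophagy receptor, 11) and *Akirin1* (10) had adjusted p of 0.519 to 0.570. All 6 genes reached the minimum of 10 UMIs through the DAT:EGFP libraries alone. In the 3 cortical VGlut1-VENUS FASS libraries *Sf3b5* held 1, 3 and 3 UMIs and *Nkain4* 3, 3 and 4. *Golgb1* held 4, 1 and 1 there, *Cdc123* 0, 3 and 2, and *Tax1bp1* and *Akirin1* each 1, 0 and 1. In the small particles none of these 6 genes passed (log2 fold changes -0.86 to 0.47, adjusted p of at least 0.820). On the other side, *Tmx4*, an endoplasmic reticulum thioredoxin, had 1 UMI in DAT:EGFP and 9 in VGlut1-VENUS (4, 2 and 3), a ratio of 19.0 with a counting interval of 2.64 to 834 (adjusted p = 0.339). *Cd109* and *Scgb1a1* ranked with it through 1 library each, 17 of 18 UMIs in VGlut1-VENUS replicate 3 and all 15 in replicate 1.

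Complete separation of the groups was rare. For 6 against 3 libraries without tied values, 1 of 84 regroupings (0.0119) separates a gene in a given direction. Genes at 0 in many libraries can have no such regrouping. The share that random regrouping gives over all tested genes is therefore lower, and it was not computed. After size factor scaling, 26 of the 2099 genes had all 6 DAT:EGFP libraries above all 3 VGlut1-VENUS libraries (1.24%) and 17 had all 6 below (0.81%). Of the 26, 7 were at 0 in every VGlut1-VENUS library.

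Astrocyte transcripts were the most abundant of the cell type lists in both groups, and no member passed the test. Of 25 genes, 23 were tested, 16 had a log2 fold change above 0, and the median was 0.30, beside 0.04 over all genes. *Apoe*, the main lipid carrier made by astrocytes, held 314, 66, 66, 250, 178 and 103 UMIs in DAT:EGFP and 112, 80 and 79 in VGlut1-VENUS. Scaled, every DAT:EGFP library was above every VGlut1-VENUS library, at 6892 ± 2068 against 4380 ± 593 CPM (SD, n = 6 and 3, log2 fold change 0.68, 95% interval 0.09 to 1.26, adjusted p = 0.995). In the small particles of the same preparations *Apoe* was at 0.00 (standard error 0.27). The 3 cortical VGlut1-VENUS FASS libraries held it at 5005, 5284 and 4338 CPM, beside a lowest DAT:EGFP FASS value of 4853 CPM. The genotype:FASS term, from a separate edgeR model of all 24 plate samples, was 0.58 (adjusted p = 0.988). *Sparcl1*, a matricellular protein gene, was at 1010 ± 414 and 589 ± 109 CPM (SD, n = 6 and 3, log2 fold change 0.80 ± 0.36 SE, adjusted p = 0.995). *Cst3*, which encodes the protease inhibitor cystatin C of astrocytes and microglia, was at 7571 ± 2920 and 5655 ± 984 CPM (SD, n = 6 and 3, 0.42, 95% interval -0.18 to 1.03, adjusted p = 0.995). *Aldoc*, *Clu* and *Cpe* lay between 0.26 and 0.35, the glutamine synthetase gene *Glul* was at -0.32, and *Gfap* had 4 UMIs in DAT:EGFP and 1 in VGlut1-VENUS. The list as a whole took 4.30%, 2.22%, 2.41%, 4.07%, 3.53% and 2.83% of UMIs in the DAT:EGFP and 2.63%, 2.69% and 2.31% in the VGlut1-VENUS libraries. The 2 lowest DAT:EGFP shares were those of the shallowest libraries, replicates 2 and 3, in which *Dusp10* took its largest shares. Replicate 2 was below the VGlut1-VENUS range, replicate 3 within it and the other 4 above it. In bulk libraries, more particles of a type and more RNA per particle cannot be told apart.

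The other glial and non-neuronal lists overlapped between the groups. Of 20 oligodendrocyte genes 16 were tested, with 8 above 0, a median of -0.01 and none past the test. Myelin basic protein (*Mbp*), whose mRNA travels into processes, was at 3044 ± 1263 and 3304 ± 480 CPM (SD, n = 6 and 3, log2 fold change -0.11, adjusted p = 0.995). Of 14 microglial genes 9 were tested, 7 of them above 0 (median 0.50, none past the test). The complement gene *C1qa* was at 0.84 (adjusted p = 0.995) while *C1qc* was at -0.67. Endothelial, red blood cell and choroid plexus lists had 1 tested gene each (*Bsg*, *Hbb-bs* and *Ttr*), at -0.13, -1.04 and -0.20, and none passed.

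**Figure D4:**
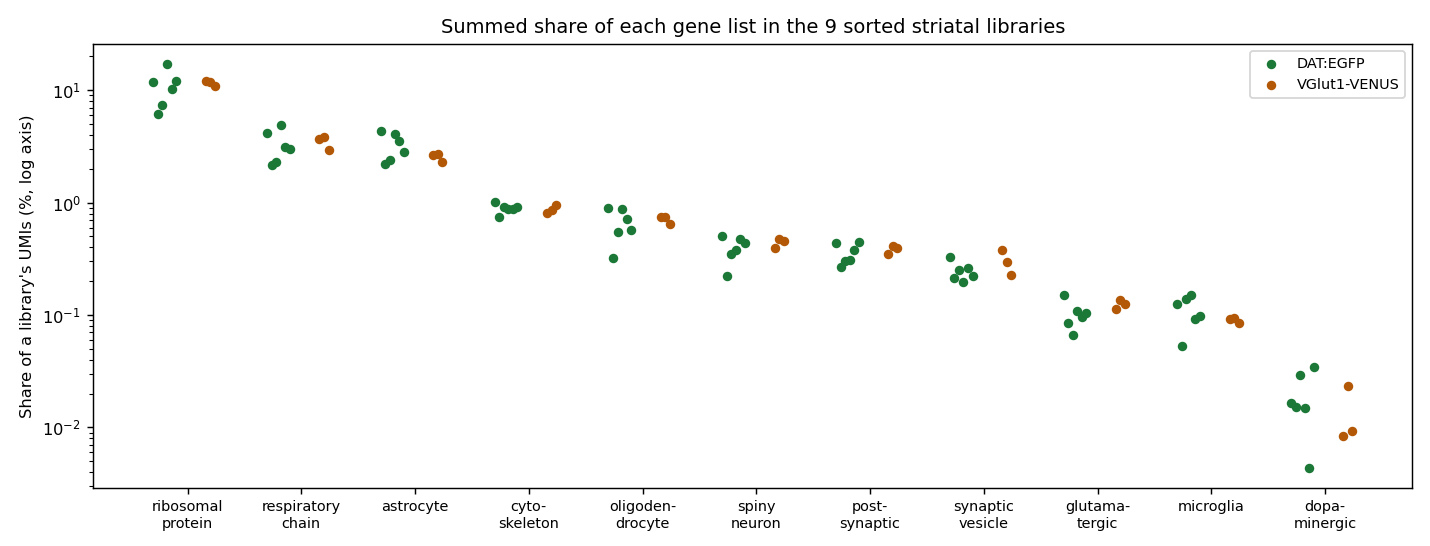
Share of a library's UMIs (%, log axis) taken by 11 of the gene lists in the 6 DAT:EGFP (green) and 3 VGlut1-VENUS (orange) sorted striatal libraries. The groups overlap in every list shown, and the dopaminergic list takes 0.00439% to 0.0345% of UMIs.

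Striatal neuron transcripts were present at like shares in both groups. The list for spiny projection neurons took 0.222% to 0.510% of UMIs in DAT:EGFP and 0.392% to 0.472% in VGlut1-VENUS libraries, and of 13 tested members 6 were above 0 (median -0.01, none past the test). The enkephalin precursor *Penk*, of indirect pathway neurons, was at 832 ± 389 and 1192 ± 145 CPM (SD, n = 6 and 3, log2 fold change -0.48, adjusted p = 0.995). *Arpp21* (0.27) and *Meis2* (0.49) did not pass either. Among interneuron and GABAergic genes, 5 of 15 were tested, 2 of them above 0 (median -0.94), and none passed. The peptide gene *Cck* was at 213 ± 139 and 424 ± 165 CPM (SD, n = 6 and 3, -0.95, adjusted p = 0.995), *Sst* at -1.16 and *Npy* at -0.94. *Gad2* was at 0.58 (standard error 0.96).

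Genes for the release machinery and the postsynaptic side showed no called difference. Of 30 synaptic vesicle and fusion genes 19 were tested, with 8 above 0 and a median of -0.27, and none passed. *Snap25*, a fusion protein of the presynaptic membrane, held 9, 0, 2, 8, 6 and 4 UMIs in DAT:EGFP and 4, 9 and 4 in VGlut1-VENUS (log2 fold change -0.45 ± 0.52 SE, adjusted p = 0.995), and the vesicle proteins *Rab3a*, *Sv2b* and *Sncb* were at -0.98, -1.05 and -0.73 without passing. Only 3 of 17 active zone genes had enough UMIs, *Pclo* (-0.59), *Rims1* (-0.12) and the calcium channel subunit *Cacnb4* (0.05). *Rims2* had 4 UMIs in DAT:EGFP and 0 in VGlut1-VENUS, and *Bsn* 5 and 4. The AMPA receptor subunit gene *Gria1* had the smallest p of the 20 tested dendritic and postsynaptic genes, with 4, 1, 1, 1, 1 and 0 UMIs against 9, 2 and 5 (59.2 ± 45.5 and 244 ± 131 CPM, SD, n = 6 and 3, log2 fold change -1.98 ± 0.62 SE, adjusted p = 0.566). Its small particle value was 0.25 (adjusted p = 0.930). *Camk2a*, whose mRNA is known from dendrites, was at 541 ± 83.4 and 341 ± 149 CPM (SD, n = 6 and 3, 0.64, adjusted p = 0.995), and the NMDA receptor gene *Grin2a* at -1.15. That list's median was -0.12.

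In the cytoskeleton list 20 of 29 tested genes were above 0 (median 0.13, none past the test). *Nefl*, the light neurofilament subunit of large axons, held 3, 1, 5, 3, 6 and 1 UMIs in DAT:EGFP and 1, 0 and 0 in VGlut1-VENUS, without overlap after scaling (ratio 8.99, counting interval 1.43 to 374, adjusted p = 0.705). In the 3 cortical VGlut1-VENUS FASS libraries (103170 UMIs in all) *Nefl* held 3, 11 and 8 UMIs. *Actg1* was at 0.87 (adjusted p = 0.995) and *Actb*, a housekeeping actin, at 1274 ± 285 against 1500 ± 81.1 CPM (SD, n = 6 and 3, -0.21, 95% interval -0.78 to 0.35, adjusted p = 0.995). Of 16 tested calcium and calmodulin genes 4 were above 0 (median -0.19). The plasma membrane calcium pump *Atp2b2* was at 270 ± 162 and 549 ± 70.7 CPM (SD, n = 6 and 3, -0.98, adjusted p = 0.995), and *Calm3*, one of the calmodulin genes, at -0.66. The immediate early genes *Jund* and *Egr1* were at -1.30 and -0.67, and *Malat1*, a nuclear RNA, at 703 ± 319 and 824 ± 334 CPM (SD, n = 6 and 3, -0.22). Nuclear RNAs took 0.408% to 1.06% of UMIs in DAT:EGFP and 0.555% to 0.903% in VGlut1-VENUS FASS libraries.

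Ribosomal and mitochondrial transcripts were abundant in both groups. All 77 cytosolic ribosomal protein genes were tested and none passed, with 30 above 0 and a median of -0.09. They took 11.01% to 11.97% of UMIs in the VGlut1-VENUS and 6.09% to 17.1% in the DAT:EGFP libraries, a range among DAT:EGFP replicates wider than the difference between the group means (10.8% ± 3.92 and 11.6% ± 0.547, SD, n = 6 and 3). The members with the smallest p were *Rps24* (-0.59), *Rps15* (-0.51), *Rps13* (0.59) and *Rps10* (0.61), each with an adjusted p of 0.995. All 50 nuclear respiratory chain genes were tested, with 23 above 0 and a median of -0.03, and none passed. In this list 4 of 50 genes, *Ndufs5*, *Uqcrb*, *Atp5e* and *Ndufa4*, had every DAT:EGFP library above every VGlut1-VENUS library, beside 1.24% of all tested genes. *Ndufs5*, of complex I, held 17, 6, 4, 21, 15 and 7 UMIs against 7, 4 and 2 (499 ± 139 and 208 ± 104 CPM, SD, n = 6 and 3, log2 fold change 1.28 ± 0.42 SE, adjusted p = 0.604). *Uqcrb*, of complex III, was at 241 ± 100 and 98.6 ± 17.4 CPM (SD, n = 6 and 3, 1.29, adjusted p = 0.995), and *Atp5e*, of the ATP synthase, at 837 ± 372 and 517 ± 12.7 (0.71, adjusted p = 0.995). *Ndufa4* was at 679 ± 215 and 466.4 ± 42.8 CPM (SD, n = 6 and 3, 0.56, adjusted p = 0.995). The small particle log2 fold changes of *Ndufs5*, *Uqcrb*, *Atp5e* and *Ndufa4* were 0.14, -0.27, -0.12 and 0.07. In the 3 cortical VGlut1-VENUS FASS libraries (103170 UMIs in all) *Ndufs5* held 7, 7 and 20 UMIs. *Uqcrb* held 12, 10 and 11 there and *Atp5e* 23, 24 and 29. Of 12 tested mitochondrially encoded genes 4 were above 0 (median -0.05, none past the test). Among them the mRNAs *mt-Nd1*, *mt-Nd2*, *mt-Nd4* and *mt-Cytb* were at -0.04, 0.01, 0.09 and 0.26. Smallest in p in this list were *mt-Nd6*, *mt-Co1* and *mt-Nd3*, at -0.79, -0.28 and -0.36.

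The most abundant rows of all were *Dusp10*, *mt-Rnr2*, *Unc93b1* and *mt-Rnr1*. *Dusp10* held 1847, 2787, 2448, 1515, 2779 and 2588 UMIs in the DAT:EGFP libraries and 2415, 2008 and 2581 in the VGlut1-VENUS libraries (log2 fold change 0.34, adjusted p = 0.995). *Unc93b1*, which encodes a trafficking partner of Toll-like receptors, held 702, 1211, 818, 735, 1799 and 1081 against 1017, 586 and 914 (0.65, adjusted p = 0.995). The ribosomal RNA *mt-Rnr2* held 1220 to 2319 and 1471 to 1986 UMIs. Over all 376 UMI libraries of the series, of which the deepest held 904478 UMIs, no row exceeded 4549 UMIs.

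**Figure D5:**
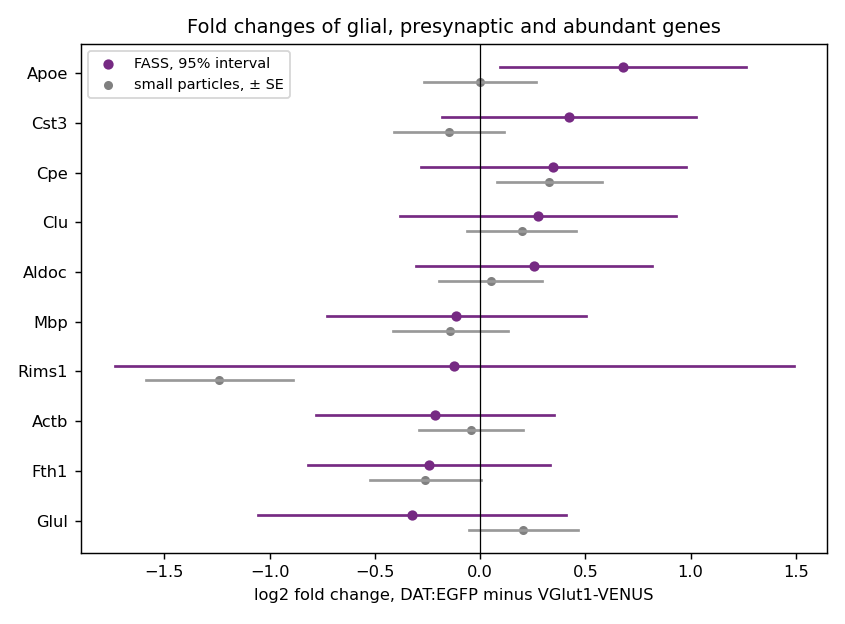
log2 fold change, DAT:EGFP minus VGlut1-VENUS, of 10 glial, presynaptic and abundant genes, in the sorted libraries with 95% intervals (purple) and in the small particles with standard errors (grey). The interval of *Apoe*, 0.09 to 1.26, is the one that leaves out 0 in the sorted libraries, and no gene shown passed the adjusted test.

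The precision followed the level of a gene. For the 107 genes of at least 1000 CPM on average, the median standard error was 0.31, all but 10 had a log2 fold change within 0.5 of 0, and 78 (72.9%) had a 95% interval inside -1 to 1, which leaves out a 2-fold difference in either direction. For the 522 genes of 100 to 200 CPM the median standard error was 0.65 and the median half-width of the interval 1.34. Over all 2099 genes 169 (8.05%) had an interval inside -1 to 1. The remaining 1930 genes cannot be called equal between the groups.

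The same contrast in the small particles, which were sorted from the same preparations at 76117 to 299856 UMIs per sample, called 15 of 9326 genes, all lower in DAT:EGFP (0.161%). In 7 of the 15 every DAT:EGFP sample was below every VGlut1-VENUS sample, and they included *Gm20746*, *Mir692-1*, *Rpl13a-ps1* and *Mettl14*, an RNA methyltransferase subunit (-2.10, adjusted p = 0.0154). In 9 of the 15, more than 50% of all UMIs came from 1 VGlut1-VENUS sample. The largest of these, *Agxt*, a liver peroxisomal enzyme, held 1671 of its 1770 UMIs in VGlut1-VENUS replicate 2, and 1662 of them in 1 technical repeat. The genotype:FASS term, which asks whether the genotype difference in sorted particles departs from that in small particles, called 0 of 11001 genes with edgeR and 0 with DESeq2's likelihood ratio test (440 and 188 at an unadjusted p under 0.05, 0% called). With the preparation as a block it called 4 (*Agxt*, *Angptl2*, *D10Wsu102e* and *Tfap2a*). For *Gm20746*, *Mir692-1* and *Ick* this term was 0.36, 0.67 and -1.05, with adjusted p of 0.988 to 1.00.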

How the data were processed

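Poly(A)-primed 3' libraries were made from sorted striatal and cortical particles on a single plate. The authors trimmed poly(A), aligned reads with STAR to GRCm38 with GENCODE vM10, demultiplexed barcodes and collapsed UMIs per gene, and deposited raw UMI counts per gene and library. Groups came from the labels, and small particle samples are sums of their 3 technical repeats, made here.

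Members, gene lists and tests were chosen with earlier results of these data known. Counts were tested with edgeR 4.0.16 (quasi-likelihood, R 4.3.3, limma 3.58.1) on genes whose UMIs summed to 10 or more in the model, with DESeq2 1.42.0 median-of-ratios size factors, and Benjamini-Hochberg adjusted p under 0.05 was a call. The genotype:FASS model held all 24 plate samples with FASS, region, genotype and region:FASS terms. Library measures were compared by exact permutation, and p-values were adjusted over 3 measures and 2 preparations. The code was tested on simulated counts. Sorted libraries held 13072 to 33833 UMIs. Intervals of pooled CPM and of UMI ratios and detection limits cover counting error only, while intervals of log2 fold changes come from the edgeR model and include the spread between libraries.

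Genes were named by rule: those the study names for its sorted samples or reporter lines, the 6 smallest p per direction, up to 4 per list by smallest p, and the 10 most abundant. *Ftl1*, *Rpl13a*, *Rpl13a-ps1*, *Mettl14*, *Ndufa4*, *Dlk1* and *Sv2c*, the genes found in single libraries and the 4 genes of the blocked model were chosen after their values were seen. Coordinates are GENCODE vM21 on GRCm38, in which 48058 of 48531 row identifiers were found. Sorted and small particle samples of a number came from a single preparation by the study's sample sheet, and over 12 such pairs their deviations from the group means correlated at -0.0721 to 0.239 (median 0.021). Alternatives covered scaling, filters, test, samples in the model and each replicate left out. Some genes that the rule names are not reported here.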

Additional observations from a re-analysis of the deposited data

Results flagged for a closer look

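Among 55 sets of 4 to 10 values examined for a value far from the others, of which chance gives about 1 in 20, a single one stood out. The interferon and reactive glia list took 0.1103% of UMIs in DAT:EGFP FASS replicate 3, while the other 5 DAT:EGFP libraries lay between 0 and 0.0352%. In that library 8 of the list's UMIs were *Lyz2*, a myeloid lysozyme, and 3 were *B2m*, a subunit of MHC class I.

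A row spelled WRPE in the file, taken here for the WPRE element of the injected virus, entered no comparison. It held 7 UMIs in 3 of the 6 DAT:EGFP FASS libraries (53.4 CPM) and 5 UMIs in the DAT:EGFP small particles (5.03 CPM). The 24 VGlut1-VENUS FASS and small particle libraries together held 2 UMIs (2.36 CPM). In RiboTag libraries it held 46 UMIs in 20 of 165 Cre-negative libraries and 0 in 163 Cre-positive libraries. The genotype labels of both name no AAV, so UMIs in this row cannot be read as the virus alone.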

How the results depend on the processing

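Of 305 values under alternatives, 258 kept their direction and side of the threshold or stayed within their margin. The sorted comparison called 1 gene with DESeq2, 7 with edgeR's legacy quasi-likelihood method and 1 with all 24 samples in the model. It called 2 to 4 genes with a replicate left out and 9 without a filter on low counts (2 of them higher in DAT:EGFP). These 2 were *Gm16499* (72 UMIs in DAT:EGFP replicate 5 and 1 elsewhere) and *Gm18009* (all 40 UMIs in DAT:EGFP replicate 6). Without VGlut1-VENUS replicate 1 *Gm20746* was not called, and without replicate 2 *Ick* was not. Leaving out *Dusp10* and *Unc93b1*, or both shallowest DAT:EGFP libraries (chosen after seeing the data), kept both calls. The small particle comparison called 6 genes with DESeq2, 66 without a filter, 5 with the first technical repeat alone, and 3 to 28 with a replicate left out (3 without DAT:EGFP replicate 1, 2, 3 or 6, 28 without DAT:EGFP replicate 5, 8 without VGlut1-VENUS replicate 1). The genotype:FASS term called 1 gene with TMMwsp, TMM or total UMIs as scaling, 2 with the legacy method, 8 without a filter, 4 with the preparation as a replicate block, and 0 to 2 with a replicate left out. The groups of the sorted comparison share no preparation, so no block could be used there.

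Differences between the sorted groups that were near 0 changed sign. With a replicate left out, the log10 total ran from -0.0451 to 0.0375, the expected gene number from -93.7 to 67.9 and the mitochondrially encoded share from -1.51 to 0.358 percentage points. Without *Dusp10* and *Unc93b1* the latter measures were 45.7 genes and 0.373 points, and without thinning the gene difference was 24.8. The log10 total of small particles differed by 0.139 to 0.258, and without DAT:EGFP replicate 5 (0.258) its unadjusted exact permutation p was 0.0179, the smallest that 5 against 3 samples can give. Median log2 fold changes of 2 lists, oligodendrocyte and respiratory chain, changed sign with total UMIs as scaling. The cause was not tested. An alternative that left out libraries under 10000 UMIs was not run, since there were 0. Depth limited most genes: 10018 of 12117 with any UMI were too sparse to test.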

Other observations

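Some rows held nearly all of their UMIs in a single sorted library. Of the 2099 tested genes, 11 had at least 90% of their UMIs in 1 of the 9 libraries. In DAT:EGFP replicate 6 these were *Gm18009* (40 UMIs there) and the immunoglobulin genes *Igkc* (13) and *Igha* (12). In DAT:EGFP replicate 3 they were the taste receptor gene *Tas1r3* (18) and the intestinal cadherin gene *Cdh17* (12), in replicate 5 *Gm16499* (72) and in replicate 2 *Sh2d4b* (10). In VGlut1-VENUS replicate 3 they were *Cd109* (17), *Gins2* (14) and *Gm20268* (9), and in replicate 1 *Scgb1a1* (15). Of 7506 gene and small particle sample pairs with at least 10 UMIs in a technical repeat, 42 (0.56%) had 0 in the other 2 repeats.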
